A study of Homo sapiens with 25 samples.

Results

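The E2F transcription factors and the retinoblastoma family, also called the pocket proteins, were followed as 10 genes: E2F1, E2F2, E2F3, E2F4, E2F5, E2F7, E2F8, RB1, RBL1 and RBL2. They are 10 of the 58302 genes counted, and were matched by symbol to 1 Ensembl identifier each. The members are the family genes named here, and E2F6 is not one of them but is given with the partners below. Poly(A) RNA had been sequenced in bulk from hiF-T, a fibroblast-like human line made from BJ skin fibroblasts that carries TERT, the catalytic subunit of telomerase, under inducible control. All libraries were labelled wild type, so the line and its TERT construct are shared by every group. In the sort set there were 5 groups of 4 biological replicates, namely ungated cells and cells with low, midlow, midhigh and high accumulation of a dye. The series describes this sort as one by proliferation status, and the labels do not say which dye level marks slow division. What separates the replicates is not described further, so p-values measure the spread between these samples. The drug set held 2 LSD1 inhibition libraries (replicates 1 and 2), 1 DOT1L inhibition library (replicate 1), 1 DMSO library (replicate 1) and 1 library without drug (replicate 2). Neither the compounds nor their doses or times are given in the labels. LSD1 removes methyl groups from histone H3 at lysine 4, and DOT1L adds them at lysine 79.

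E2F proteins bind promoters of genes for DNA replication and cell division, most of them together with a DP partner protein. E2F1, E2F2 and E2F3 are known as activators, E2F4 and E2F5 as repressors that act with pocket proteins in resting cells, and E2F7 and E2F8 as repressors that need neither a DP partner nor a pocket protein. The pocket proteins RB1, RBL1 (p107) and RBL2 (p130) bind E2Fs and hold their targets silent until cyclin-dependent kinases phosphorylate them. RBL2 is known as the pocket protein of quiescent cells, whereas RBL1 and several E2F genes are themselves E2F targets.

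Gene counts summed to 15015039 to 20030093 per library, and 21991 to 26481 genes had at least 1 count. Levels are given in CPM, counts relative to the library's total, scaled with TMM, a method that balances library composition, and a count of 0 would allow 0.150 to 0.200 CPM per library. All 10 members had counts in every library and passed the filter on low counts in every comparison. Of 10 fibroblast markers 7 were above 1 CPM in every library, among them COL1A1 and VIM, whereas THY1 reached only 0.059 to 1.72 CPM. DCN ranged from 0.801 to 41.0 CPM and LUM from 0.626 to 28.4 CPM. The sum of the 10 markers was 21550 to 29650 CPM in high dye and 17470 to 19140 CPM in low dye libraries. FN1 alone had 10554 to 19450 CPM over all libraries. The part of this difference in the results below was not tested. Marker lists of other cell types summed to at most 3.58 CPM in any library, and KRT5, CDH1, PECAM1, CD3E and NANOG were at 0 in some libraries. POU5F1 of the pluripotent list was above 1 CPM in every library, at 1.34 to 3.58 CPM. EPCAM (0.172 to 2.95 CPM), MLANA (0.245 to 1.29 CPM) and VWF (0.051 to 0.6 CPM) were at 0 in no library. In bulk RNA, fewer cells of a type and less RNA per cell cannot be told apart.

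Promoters are shown because several of these genes are known E2F targets, and their starts differ in E2F-type sequence. For 8 of the 10 members, all but E2F5 and E2F8, entries of a RefSeq table of promoters were used (GRCh38.p14, 250 bases before to 50 bases after a start). The words TTTGGCGC, TTTCGCGC, TTTCCCGC and TTTGCCGC were searched on both strands as E2F-type motifs, and TTTGAA as the cell cycle homology region, known as CHR. The words were picked with the member promoters in view. An E2F-type word stood in 3.31% and a CHR word in 15.2% of the 35116 promoters in the table. E2F1 had 2 E2F-type words, RBL1 had 2, and E2F2 and E2F3 had 1 each. None was found in the entries of E2F4, E2F7 or RBL2. The RBL2 entries lay 494 and 1642 bases from the annotated gene start, so the sequence at that start was not searched. The RB1 entry lay 172724 bases from the annotated gene start, at an internal start, and is not considered further. E2F3 also held a CHR word at position -65 from its start site, and RBL2 held one at position 24. No word overlapped another in a member promoter, and a match describes letters, not a bound site.

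The 100 bases before the start site follow for 3 members with E2F-type words, E2F1 (chr20:33686386-33686485, minus strand), E2F2 (chr1:23531234-23531333, minus strand) and RBL1 (chr20:37095998-37096097, minus strand). They are set beside those of E2F4 (chr16:67192055-67192154, plus strand) and RBL2 (chr16:53434371-53434470, plus strand), which had none in their 300 bases. The RBL2 start site used lay 494 bases from the annotated gene start. Each reads 5′ to 3′ on the gene's strand, and capitals mark the E2F-type words, those on the other strand included.
E2F1: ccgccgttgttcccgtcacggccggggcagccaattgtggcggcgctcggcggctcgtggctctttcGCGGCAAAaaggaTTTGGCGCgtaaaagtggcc
E2F2: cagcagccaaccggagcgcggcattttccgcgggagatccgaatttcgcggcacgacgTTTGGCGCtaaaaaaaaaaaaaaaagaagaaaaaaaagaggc
RBL1: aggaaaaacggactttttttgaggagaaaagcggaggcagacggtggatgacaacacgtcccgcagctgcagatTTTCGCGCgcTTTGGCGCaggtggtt
E2F4: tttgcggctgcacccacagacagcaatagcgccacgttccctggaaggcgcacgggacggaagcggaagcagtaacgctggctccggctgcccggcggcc
RBL2: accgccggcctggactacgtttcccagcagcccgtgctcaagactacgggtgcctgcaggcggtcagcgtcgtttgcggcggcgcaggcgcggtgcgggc
In E2F1 the words began at positions -33 and -20 from the start site, in RBL1 at -26 and -16, and in E2F2 at -42.

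Levels were compared between genes as CPM per kilobase of annotated exon (GENCODE release 29, GRCh38), with means and SD over the 20 sort libraries. E2F7 had the highest mean at 19.6 ± 4.72, followed by RB1 at 18.7 ± 2.96, E2F1 at 17.4 ± 5.41 and E2F4 at 16.2 ± 1.19. The ranges of these 4 genes overlapped, so their order is not resolved beyond the spread of the libraries. E2F3 (8.72 ± 1.15), RBL1 (8.10 ± 2.03) and RBL2 (5.78 ± 0.778) had lower means, with overlapping ranges. The range of E2F1 (8.63 to 27.8) also overlapped those of E2F3 (7.19 to 11.3) and RBL1 (3.72 to 10.9). The lowest values of RBL1 (3.72) and RBL2 (4.41) were above the highest of E2F8 (2.88). E2F8 averaged 2.00 ± 0.606, E2F2 1.06 ± 0.512 and E2F5 0.790 ± 0.139 CPM per kilobase. The range of E2F2, 0.321 to 2.40, covered the whole range of E2F5. E2F2, E2F5 and E2F8 were thus the scarce members, with CPM values in single digits in most libraries.

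In high dye against low dye cells, 5 of the 10 members fell and none rose: the activators E2F1, E2F2 and E2F3 and the pocket proteins RB1 and RBL1. E2F2 fell to 0.33 and E2F1 to 0.48 of the low dye level, RBL1 to 0.53, RB1 to 0.72 and E2F3 to 0.78. E2F4, E2F5, E2F7, E2F8 and RBL2 did not pass the test. Calls are those with a Benjamini-Hochberg adjusted p under 0.05 in edgeR's quasi-likelihood test. Unless a block is named, the fit left out the replicate number, although the numbers pair the sort libraries. Its p-values thus include the spread between replicate numbers. Of all 14592 genes tested 17.7% were called, 9.39% higher and 8.35% lower. The median log2 fold change was -0.42 over the 10 members and 0.01 over all genes tested. With the replicate number as a block, E2F7 and E2F8 were called lower too, which made 7 of 10 members against 37.2% of all genes called, 19.8% higher and 17.4% lower.

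**Figure D1:**
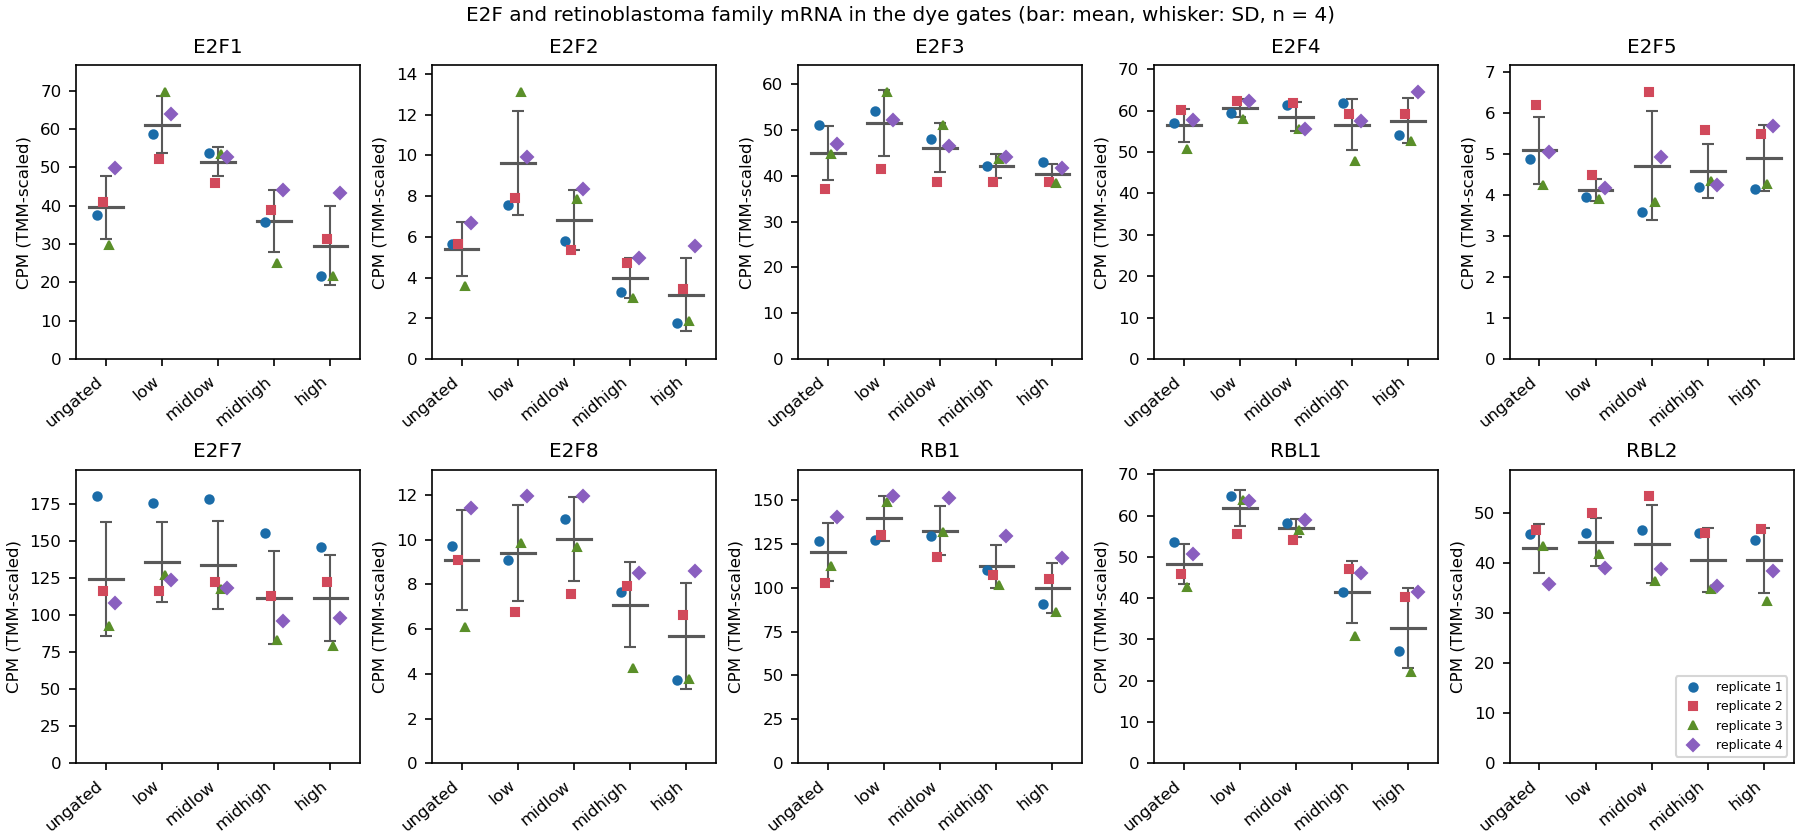
CPM of each member (vertical axis, from 0) in ungated cells and in the gates from low to high dye (horizontal axis), with 1 point per library, marked by replicate number, and the mean and SD of 4 libraries. E2F1, E2F2 and RBL1 are lowest on average in high dye cells, whereas the points of E2F4 and of RBL2 overlap between all gates and E2F7 is highest in replicate 1 throughout.

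E2F1 (ENSG00000101412, minus strand of chr20:33675683-33686404) encodes the first described activator of the family. Its level was 21.6, 31.3, 21.8 and 43.4 CPM in high dye replicates 1 to 4, against 58.7, 52.1, 69.7 and 63.8 CPM in low dye replicates. The groups did not overlap, and high dye replicate 4 stood above the other high dye libraries. High over low dye, E2F1 had a log2 fold change of -1.05 ± 0.20 (SE), with an edgeR adjusted p of 0.00245. Across the gates from low to high dye the mean level was 61.1, 51.4, 36.0 and 29.5 CPM, and in ungated cells it was 39.5 CPM.

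E2F2 (ENSG00000007968, minus strand of chr1:23506430-23531220), an activator closely related to E2F1, had 1.75, 3.44, 1.86 and 5.57 CPM in high dye libraries. In low dye libraries it had 7.58, 7.88, 13.1 and 9.92 CPM. The groups did not overlap, and as for E2F1 the values of high dye replicates 1 and 3 were the lowest and that of replicate 4 the highest. Its log2 fold change of -1.60 ± 0.31 was the largest among the members (edgeR adjusted p = 0.00245). The difference within a replicate number ranged from -2.82 to -0.83 on the log2 scale.

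E2F3 (ENSG00000112242, plus strand of chr6:20401906-20493715) had 43.0, 38.6, 38.3 and 41.6 CPM in high dye cells, against 54.2, 41.5, 58.3 and 52.1 CPM in low dye cells. The groups overlapped through low dye replicate 2, and the high dye value was lower in 4 of 4 replicate numbers. The share of all genes with the same direction in 4 of 4 replicate numbers was not counted, here or for the members below. The log2 fold change of -0.35 ± 0.11 passed the test (edgeR adjusted p = 0.0307). It did not pass when only the 2 groups were fitted (adjusted p = 0.0607), nor without low dye replicate 1, 3 or 4 or high dye replicate 2 or 3 (adjusted p from 0.0600 to 0.0961). With the replicate block it was -0.34 ± 0.07 (adjusted p = 0.000519).

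Among the pocket proteins, RBL1 (ENSG00000080839, minus strand of chr20:36996349-37095995) had 27.2, 40.4, 22.1 and 41.4 CPM in high dye libraries, against 64.7, 55.4, 63.7 and 63.6 CPM in low dye libraries. The groups lay apart, and low dye replicate 2 stood below the other 3. RBL1 fell by 0.91 ± 0.16 on the log2 scale (edgeR adjusted p = 0.00149). RB1 (ENSG00000139687, plus strand of chr13:48303726-48599436), the founding pocket protein and a tumour suppressor, had 90.9, 105, 86.0 and 117 CPM in high dye cells. In low dye cells it had 127, 130, 149 and 152 CPM. Its groups did not overlap either, and it fell by 0.48 ± 0.11 on the log2 scale (edgeR adjusted p = 0.00735). RBL2 (ENSG00000103479, plus strand of chr16:53433977-53491649) had 44.5, 46.7, 32.3 and 38.3 CPM in high dye cells, against 45.9, 49.9, 41.7 and 38.9 CPM in low dye cells. The groups overlapped, and the high dye value was lower in 4 of 4 replicate numbers, again without a share over all genes. The log2 fold change was -0.12 ± 0.14 without the block (edgeR adjusted p = 0.579) and -0.13 ± 0.07 with it (adjusted p = 0.160), and passed in neither fit.

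In all, the activators E2F1 and E2F2 and the pocket proteins RB1 and RBL1 were the 4 members whose CPM in high and low dye libraries did not overlap, each with high dye lower. Over all genes tested, 19% did not overlap, 9.61% with high dye higher and 9.37% with high dye lower.

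Of the repressors, E2F8 (ENSG00000129173, minus strand of chr11:19224063-19241620) had 3.74, 6.62, 3.78 and 8.61 CPM in high dye libraries, against 9.08, 6.77, 9.85 and 11.9 CPM in low dye libraries. The groups overlapped, and the value was lower in 4 of 4 replicate numbers, which was not counted over all genes. At -0.72 ± 0.27 on the log2 scale it missed the threshold (edgeR adjusted p = 0.0737). It passed with the replicate block (adjusted p = 0.00538), in DESeq2 (adjusted p = 0.0411, where 20.1% of all genes were called), without the filter on low counts (adjusted p = 0.0234) and without high dye replicate 4 (adjusted p = 0.0166).

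E2F7 (ENSG00000165891, minus strand of chr12:77021247-77065580), the other DP-independent repressor, had 146, 122, 79.1 and 98.2 CPM in high dye cells. In low dye cells it had 176, 116, 127 and 124 CPM, and the groups overlapped. Its log2 fold change was -0.28 ± 0.23 without the block (edgeR adjusted p = 0.417) and -0.30 ± 0.08 with it (adjusted p = 0.00657). The fold change was nearly the same in both fits, and its standard error was smaller with the block.

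E2F4 (ENSG00000205250, plus strand of chr16:67192169-67198918), the repressor with the highest level per length after E2F7, had 54.0, 59.2, 52.8 and 64.5 CPM in high dye cells and 59.5, 62.3, 58.0 and 62.5 CPM in low dye cells. High dye values lay on both sides of the low dye values, and the log2 fold change was -0.07 ± 0.08 (edgeR adjusted p = 0.582). E2F5 (ENSG00000133740, plus strand of chr8:85177225-85217158) had 4.14, 5.49, 4.26 and 5.68 CPM in high dye cells, against 3.94, 4.48, 3.90 and 4.16 CPM in low dye cells. It was the one member with a higher value in high dye cells in 4 of 4 replicate numbers, which was not counted over all genes. E2F5 did not pass the test (0.25 ± 0.18 on the log2 scale, edgeR adjusted p = 0.374). C8orf59 overlaps 16.3% of the annotated exon bases of E2F5 on the opposite strand and had 4182 counts over all libraries, against 2065 of E2F5. The library kit does not record the strand, so the level of E2F5 is uncertain. C8orf59 itself was at -0.12 ± 0.11 on the log2 scale (edgeR adjusted p = 0.509).

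**Figure D2:**
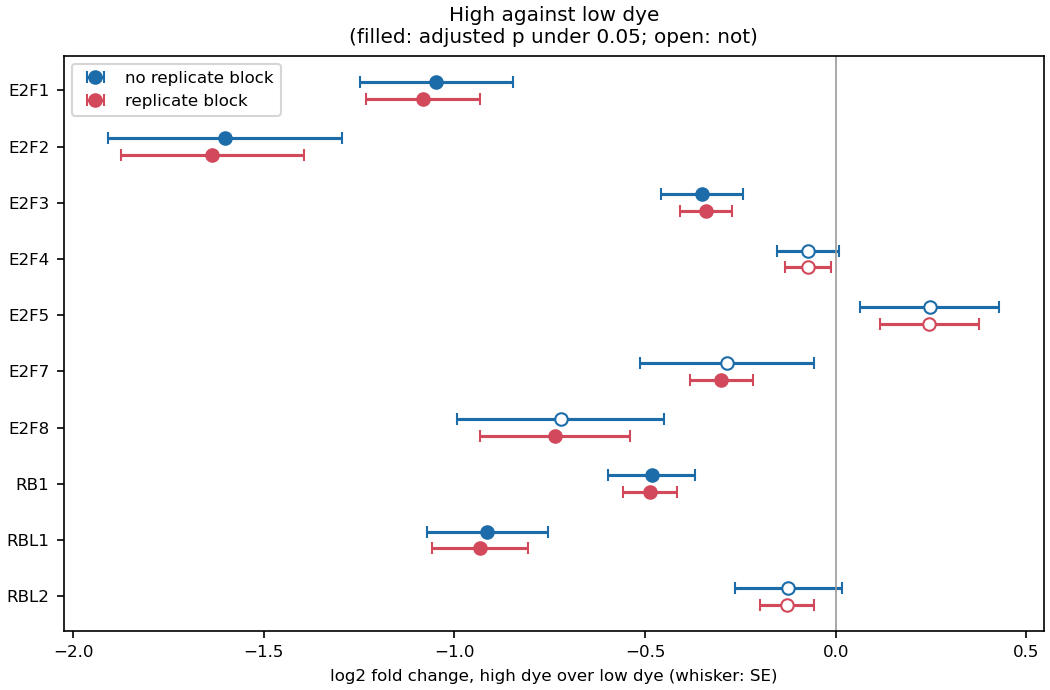
Log2 fold change of each member, high dye over low dye (horizontal axis), with its standard error, without and with the replicate block; filled points passed an edgeR adjusted p of 0.05. E2F2, E2F1 and RBL1 lie farthest below 0, and E2F7 and E2F8 pass with the block only.

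The ordered gates were also fitted as a straight line in equal steps from low to high dye, although the dye values themselves are not given. Along this line 6 members fell and none rose: E2F1, E2F2, E2F3, E2F8, RB1 and RBL1, against 26.2% of 14419 genes called, 14% higher and 12.3% lower. Per gate step the log2 change was -0.56 ± 0.09 for E2F2 (edgeR adjusted p = 0.000612), -0.37 ± 0.06 for E2F1 (adjusted p = 0.000559) and -0.32 ± 0.05 for RBL1 (adjusted p = 0.000581). It was -0.17 ± 0.03 for RB1 (edgeR adjusted p = 0.00152) and -0.12 ± 0.03 for E2F3 (adjusted p = 0.00868). E2F8 fell by 0.27 ± 0.09 per step (edgeR adjusted p = 0.0319) but missed the threshold without high dye replicate 1 (adjusted p = 0.0830), high dye replicate 3 (adjusted p = 0.0931) or low dye replicate 4 (adjusted p = 0.0754). With the replicate block 8 members were called lower, against 43.8% of genes called, 23.1% higher and 20.7% lower. The added ones were E2F7 at -0.12 ± 0.03 per step (adjusted p = 0.00184) and RBL2 at -0.05 ± 0.02 (adjusted p = 0.0441). AKTIP, which overlaps 8.33% of the exon bases of RBL2 on the opposite strand, was at -0.06 ± 0.02 per step in the same fit (adjusted p = 0.0415). E2F4 (-0.03 ± 0.02 per step) and E2F5 (0.07 ± 0.06 per step) did not pass either fit.

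Between neighbouring gates no member passed without the block. In midhigh against midlow dye cells, 0 of 10 members and 0% of 14592 genes were called by edgeR, 1891 genes (13%) had an unadjusted p under 0.05, and DESeq2 called 122 genes (0.836%). E2F1, E2F2 and RBL1 did not overlap between these gates, with midhigh dye lower. Over all genes 8.2% did not overlap, 3.41% with midhigh dye higher and 4.8% with midhigh dye lower. With the replicate block 5 members were lower in midhigh dye cells, against 10.8% of genes called, 5.52% higher and 5.27% lower. They were E2F1 (log2 difference -0.54 ± 0.15, edgeR adjusted p = 0.0259), E2F2 (-0.77 ± 0.24, adjusted p = 0.0452) and RBL1 (-0.47 ± 0.12, adjusted p = 0.0203), with RB1 (-0.24 ± 0.07, adjusted p = 0.0356) and E2F7 (-0.27 ± 0.08, adjusted p = 0.0360). E2F8 had a like size at -0.50 ± 0.19 and did not pass (adjusted p = 0.0917). The remaining members lay at -0.12 ± 0.07 (E2F3), -0.05 ± 0.06 (E2F4), -0.03 ± 0.13 (E2F5) and -0.11 ± 0.07 (RBL2) with the block.

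At the top step, high against midhigh dye, 0 members passed in either fit. Over all genes edgeR called 0% without the block, 375 genes (2.57%) had an unadjusted p under 0.05, DESeq2 called 0, and 0.0137% passed with the block. The log2 fold changes of the members ran from -0.34 ± 0.32 (E2F2) and -0.34 ± 0.16 (RBL1) through -0.32 ± 0.27 (E2F8), -0.28 ± 0.20 (E2F1), -0.17 ± 0.11 (RB1) and -0.06 ± 0.11 (E2F3). E2F7, RBL2, E2F4 and E2F5 lay between -0.01 and 0.09.

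At the bottom step, midlow against low dye, 0 members passed in either fit as well. Over all genes edgeR called 0% without the block, 322 genes (2.21%) had an unadjusted p under 0.05, DESeq2 called 0, and 0.00685% passed with the block. On the log2 scale E2F2 was at -0.50 ± 0.29, E2F1 at -0.25 ± 0.20 and E2F3 at -0.16 ± 0.11, and RBL1, RB1, E2F4, E2F7 and RBL2 lay between -0.12 and -0.01. E2F8 (0.09 ± 0.27) and E2F5 (0.20 ± 0.18) had positive values. Whether the middle step was larger than the outer steps was not tested.

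Ungated cells lay between the outer gates for most members. In high dye against ungated cells, 0 members were called by edgeR without the block, beside 0.00685% of genes (1 gene), 1543 genes (10.6%) at an unadjusted p under 0.05 and 19 genes (0.13%) in DESeq2. With the replicate block 3 members were lower in high dye cells, against 7.59% of genes called, 3.66% higher and 3.93% lower. They were RBL1 (log2 fold change -0.57 ± 0.13, edgeR adjusted p = 0.0137), RB1 (-0.27 ± 0.07, adjusted p = 0.0282) and E2F8 (-0.69 ± 0.20, adjusted p = 0.0375). E2F2 at -0.81 ± 0.25 (adjusted p = 0.0524) and E2F1 at -0.44 ± 0.15 (adjusted p = 0.0810) missed the threshold. E2F3 (-0.15 ± 0.07), E2F7 (-0.15 ± 0.08), RBL2 (-0.09 ± 0.07), E2F5 (-0.06 ± 0.13) and E2F4 (0.03 ± 0.06) did not pass.

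In low dye against ungated cells, 0 members were called by edgeR without the block, beside 0.0754% of genes (11 genes), 1898 genes (13%) at an unadjusted p under 0.05 and 188 genes (1.29%) in DESeq2. With the block E2F1 and E2F2 were higher in low dye cells, at 0.65 ± 0.15 (edgeR adjusted p = 0.00857) and 0.82 ± 0.22 (adjusted p = 0.0223), against 10.8% of genes called, 3.59% higher and 7.2% lower. RBL1 (0.37 ± 0.12, adjusted p = 0.0578), RB1 (0.22 ± 0.07, adjusted p = 0.0533) and E2F3 (0.19 ± 0.07, adjusted p = 0.0706) missed the threshold. E2F8 averaged 9.41, 10.03, 7.09 and 5.69 CPM across low, midlow, midhigh and high dye, and 9.09 CPM in ungated cells, with low dye at 0.05 ± 0.19 against ungated cells (adjusted p = 0.896). E2F7 (0.15 ± 0.08), E2F4 (0.10 ± 0.06), RBL2 (0.04 ± 0.07) and E2F5 (-0.30 ± 0.13) did not pass in this fit. The comparisons with ungated cells share the ungated libraries, and those with high or low dye cells share libraries with the comparison of the outer gates.

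The members also differed in whether their variation over the 20 sort libraries followed the sort group or the replicate number. The sum of squares of log2 CPM was divided between group, number and a remainder, as a description. The sort group held 71.8% for RBL1, 68.2% for E2F2, 67.5% for E2F1 and 58.8% for RB1, against a median of 24.7% over all genes tested. The replicate number held 76.0% for RBL2, 75.0% for E2F7, 60.6% for E2F5 and 51.3% for E2F4, against a median of 33.1%. E2F3 was divided about evenly, at 41.8% for the sort group and 41.4% for the replicate number, and E2F8 at 44.3% and 27.9%. E2F7 was highest in replicate 1 in 5 of 5 sort groups, from 146 CPM in high dye to 180 CPM in ungated cells, whereas its replicates 2 to 4 had 79.1 to 127 CPM. RB1 and E2F8 were highest in replicate 4 in 5 of 5 groups, and E2F4 was lowest in replicate 3 in 5 of 5. The labels do not say what a replicate number shares beyond its number.

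**Figure D3:**
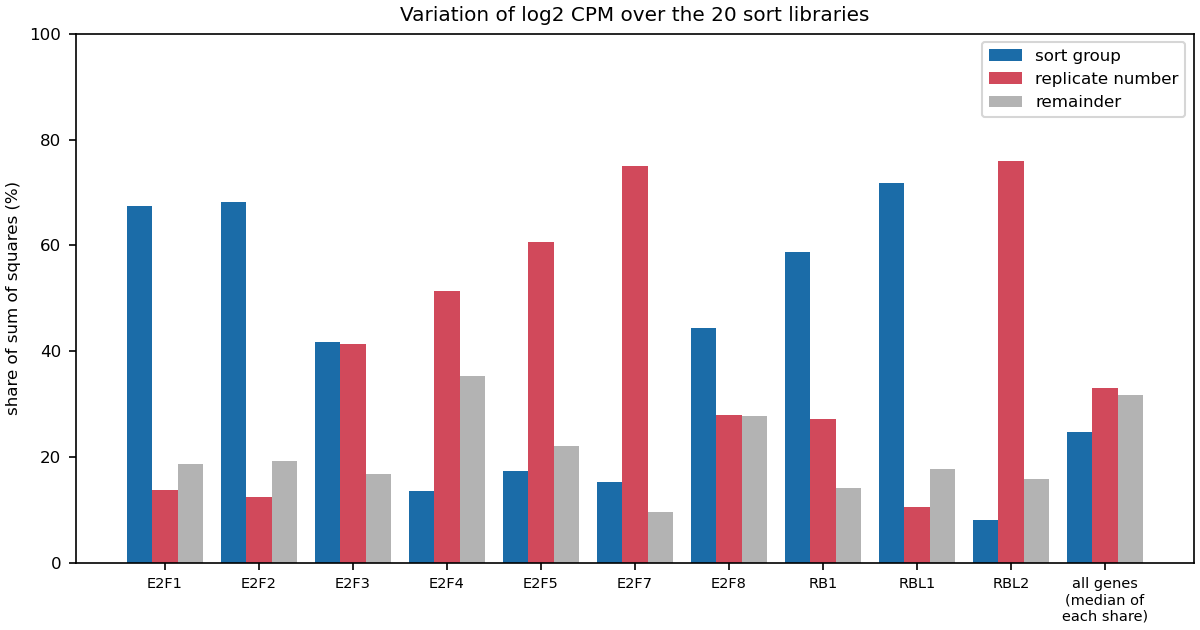
Share of the sum of squares of log2 CPM over the 20 sort libraries (vertical axis, percent) held by the sort group, the replicate number and the remainder, for each member and as the median of each share over all genes tested. The sort group holds most for RBL1, E2F2, E2F1 and RB1, and the replicate number for RBL2, E2F7, E2F5 and E2F4.

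Ratios of CPM per kilobase within a library set an activator against a repressor, and the E2F-regulated RBL1 against RBL2. On the log2 scale E2F1 over E2F4 averaged -0.51 ± 0.35 in high dye and 0.52 ± 0.21 in low dye libraries (SD, n = 4 each). As linear ratios these were 0.572 to 0.963 in high dye and 1.20 to 1.72 in low dye libraries. Per length E2F1 was thus below E2F4 in 4 of 4 high dye libraries and above it in 4 of 4 low dye libraries. Which gene was above depended on the exon lengths used, 2.503 kb for E2F1 and 3.582 kb for E2F4. In CPM E2F1 was below E2F4 in low dye replicates 1 (58.7 against 59.5) and 2 (52.1 against 62.3), and above it in replicates 3 and 4. The lengths do not affect the difference between gates. Across low, midlow, midhigh and high dye the mean log2 ratio was 0.52, 0.33, -0.16 and -0.51, and in ungated cells it was -0.02 ± 0.23. Over the 20 sort libraries E2F4 ranged from 47.9 to 64.5 CPM and E2F1 from 21.6 to 69.7 CPM.

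RBL1 over RBL2 averaged -0.04 ± 0.37 on the log2 scale in high dye and 0.79 ± 0.24 in low dye libraries (SD, n = 4 each). Every high dye library was below every low dye library, at linear ratios of 0.751 to 1.33 against 1.37 to 2.01. The E2F7 and E2F8 sum relative to the E2F1, E2F2 and E2F3 sum had a log2 ratio of -0.09 ± 0.45 in high dye and -0.61 ± 0.28 in low dye libraries. These ranges overlapped, and replicate 1 had the highest ratio in every sort group. Within each replicate number the high dye ratio was above the low dye one. No test was made on the ratios. E2F1 and RBL1 alone did not overlap between high and low dye either, so the separation of their ratios is not a separate result.

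**Figure D4:**
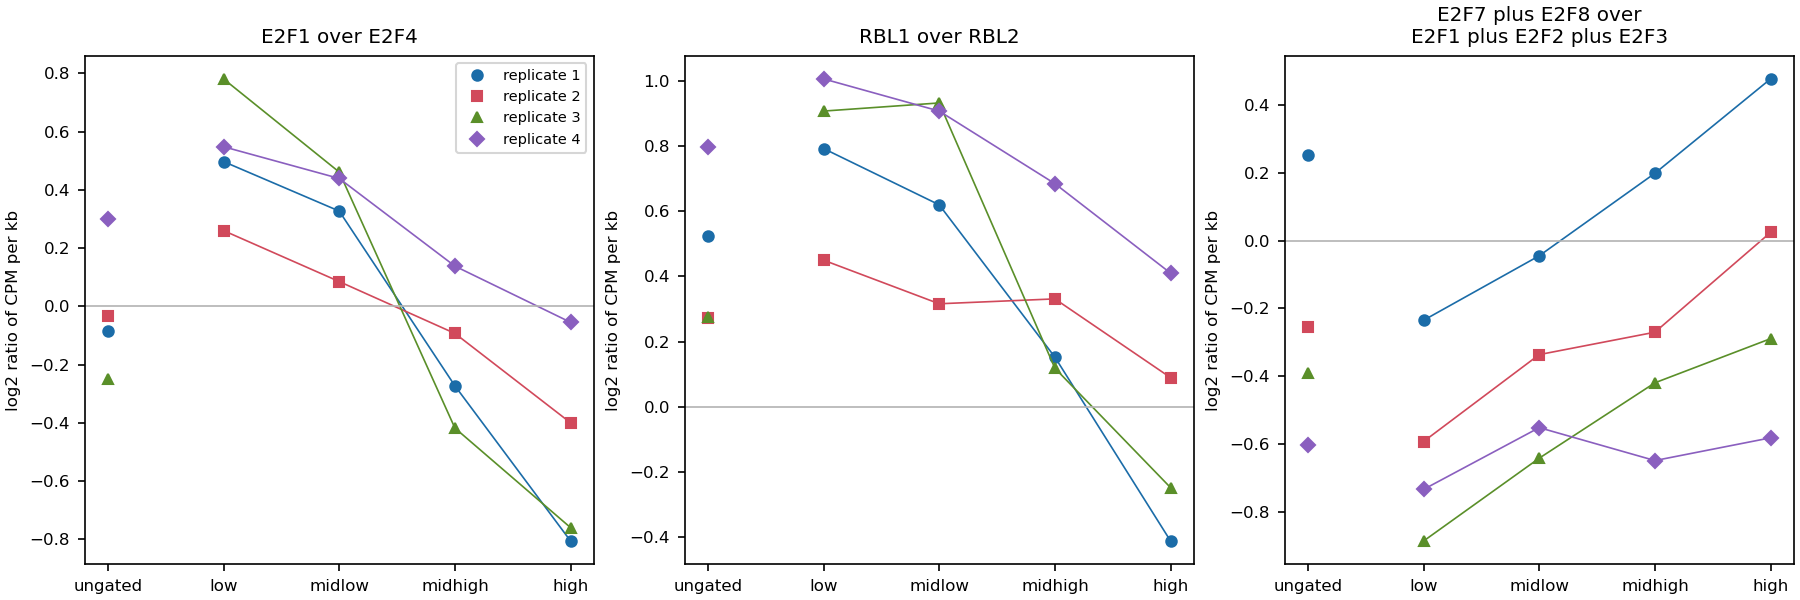
Log2 ratio of CPM per kilobase between members within each library (vertical axes) in ungated cells and the gates from low to high dye (horizontal axis), with lines joining the gates of 1 replicate number. E2F1 over E2F4 averages -0.51 in high dye against 0.52 in low dye, and RBL1 over RBL2 -0.04 in high dye against 0.79 in low dye.

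Over the 20 sort libraries, log2 CPM of E2F1 had a Pearson r of 0.963 with E2F2, 0.937 with RBL1, 0.900 with RB1 and 0.879 with E2F8. It was 0.602 with E2F4, 0.592 with the activator E2F3, 0.363 with E2F7, 0.159 with RBL2 and -0.100 with E2F5. RBL1 and RBL2 had an r of 0.355. Among 10158 genes with a mean of at least 5 CPM, those with the highest r to E2F1 included DDX39A (0.980), FAM111B, CDT1 and PFAS. To E2F8 they were KIF23 (0.954), RRM2, FAM111A, FBXO5 and AXL (0.940), and to RBL1 they were USP1 (0.989), TOPBP1, CLSPN, KNTC1 and NCAPD3 (0.979). To RBL2 they were PRRX1 (0.955), STEAP3, TCF12, TMTC4 and NET1 (0.932). The points share the sort groups, replicate numbers and library scaling, so these values describe likeness over these libraries only.

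Lists of pathway genes, chosen with earlier results of these data known, were set beside the members. Of 30 E2F targets for replication and division, 28 fell in high against low dye cells and none rose. The median was -0.88 on the log2 scale against 0.01 for all genes. Of all genes 17.7% were called in either direction and 8.35% were called lower. DNMT1, the maintenance DNA methyltransferase, averaged 231 ± 53.2 CPM in high dye cells, against 374 ± 16.5 CPM in low dye cells (SD, n = 4 each). MCM7, a subunit of the replicative helicase, averaged 167 ± 62.6 CPM in high dye cells, against 323 ± 4.32 CPM in low dye cells. Their log2 fold changes were -0.70 ± 0.15 (edgeR adjusted p = 0.00391) and -0.95 ± 0.22 (adjusted p = 0.00646). The 2 targets that did not pass were CDK1 at -0.17 ± 0.18 and TYMS at -0.54 ± 0.27. Fits without 1 of the high or low dye libraries called 22 to 29 of the targets lower. With the replicate block 29 were lower, beside 17.4% of all genes. In midhigh against midlow dye cells 27 were lower with the block, beside 5.27% of all genes, and 0 without it. Along the gates, without the block, 28 of the 30 fell as well, where 26.2% of all genes were called in either direction and 12.3% lower.

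Of 12 partners of E2F and pocket proteins, 11 were tested and TFDP3 was not. High dye cells had 6 lower and none higher than low dye cells, with a median log2 fold change of -0.36, beside 0.01 for all genes and 8.35% of all genes called lower. TFDP1, the main DP partner, averaged 162 ± 31.1 CPM in high dye cells, against 229 ± 19.2 CPM in low dye cells, at -0.50 ± 0.12 (edgeR adjusted p = 0.00841). RBBP4, a histone-binding protein of the DREAM complex, averaged 118 ± 11.8 CPM in high dye cells, against 151 ± 5.43 CPM in low dye cells, at -0.36 ± 0.09 (adjusted p = 0.00838). FOXM1, MYBL2, LIN9 and LIN54 were the others that fell, and E2F6, LIN37, LIN52, MYBL1 and TFDP2 did not pass. Without 1 library the count was 4 to 6, the lowest without high dye replicate 3. With the replicate block it was 6, beside 17.4% of all genes called lower. In midhigh against midlow dye cells 5 partners were lower with the block, beside 5.27% of all genes, and 0 without it. Along the gates 7 partners fell, where 12.3% of all genes were called lower.

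Of 19 regulators of the G1 phase, 18 were tested and CCND2 was not. High against low dye cells had 3 higher and 5 lower, with a median of -0.10, beside 9.39% of all genes called higher and 8.35% lower. CDKN1A, the kinase inhibitor p21, averaged 864 ± 332 CPM in high dye cells, against 187 ± 47.1 CPM in low dye cells, which is 2.21 ± 0.30 on the log2 scale (edgeR adjusted p = 0.000337). CDKN2A, the locus of p16, averaged 22.2 ± 2.82 CPM in high dye cells, against 15.8 ± 2.60 CPM in low dye cells, at 0.49 ± 0.12 (adjusted p = 0.0114), and CDKN2B was the third that rose. CDK2, a kinase of the cell cycle, fell by 0.62 ± 0.16 on the log2 scale (edgeR adjusted p = 0.0126), and SKP2, a ubiquitin ligase subunit that targets p27, by 0.64 ± 0.17 (adjusted p = 0.0158). With the replicate block 4 regulators were higher and 7 lower, beside 19.8% of all genes called higher and 17.4% lower. In midhigh against midlow dye cells the block called 1 higher and 4 lower, beside 5.52% and 5.27% of all genes. There 0 were called without it. In fits without the block, leaving out high dye replicate 3 gave only 1 lower and 2 higher. Leaving out high dye replicate 1 gave 2 lower and 3 higher. Without low dye replicate 3 or 4, 3 were lower and 4 higher, and in the fit of the 2 groups alone 2 and 2. Along the gates 3 regulators rose and 7 fell, beside 14% of all genes called higher and 12.3% lower. The most abundant regulators that fell were CDK4, a kinase that phosphorylates RB1 (-0.10 ± 0.04 per step, edgeR adjusted p = 0.0450), and FBXO5, an inhibitor of the anaphase-promoting complex (-0.20 ± 0.07, adjusted p = 0.0409). The lower count was 4 without high dye replicate 1 or 3 (18 tested) or low dye replicate 3 (19 tested).

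In the drug set, LSD1 inhibition was compared with the DMSO and no drug libraries as 1 control group, and 0 of the 10 members were called by edgeR. Over all 14002 genes 0.114% were called (16 genes), 950 genes (6.78%) had an unadjusted p under 0.05, and DESeq2 called 122 (0.871%). The largest member difference was in E2F5, which had 7.90 and 7.06 CPM in LSD1 inhibition replicates 1 and 2, against 4.47 CPM in the DMSO and 4.53 CPM in the no drug library. Both LSD1 inhibition libraries lay above both controls, and above the 20 sort libraries, which were scaled separately and had 3.58 to 6.51 CPM of E2F5. E2F5 differed by 0.74 ± 0.19 on the log2 scale (edgeR adjusted p = 0.338), or 0.81 against DMSO within replicate 1 and 0.63 against no drug within replicate 2. The overlapping C8orf59 had 10.5 and 11.5 CPM under LSD1 inhibition, 11.1 CPM in DMSO and 8.82 CPM without drug.

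E2F7 had 79.6 and 74.3 CPM under LSD1 inhibition, against 88.0 CPM in DMSO and 91.1 CPM without drug, which differ by -0.21 ± 0.11 on the log2 scale (edgeR adjusted p = 0.831). E2F3 had 35.7 and 34.2 CPM under LSD1 inhibition, against 45.5 CPM in DMSO and 38.5 CPM without drug, at -0.26 ± 0.13 (adjusted p = 0.824). In both genes the LSD1 inhibition libraries lay below both controls without passing the test. The same held for E2F1, at 25.9 and 24.0 CPM under LSD1 inhibition, 27.3 CPM in DMSO and 28.0 CPM without drug. E2F2 lay above both controls, at 4.37 and 3.63 CPM against 3.60 CPM in DMSO and 2.36 CPM without drug. How many of all genes lay apart from both controls in this way was not counted. E2F2 was at 0.43 ± 0.28, RB1 at 0.17 ± 0.13, RBL1 at -0.16 ± 0.16, E2F1 at -0.14 ± 0.12, RBL2 at -0.09 ± 0.15, E2F8 at -0.06 ± 0.20 and E2F4 at -0.01 ± 0.11. None of the E2F targets, partners or G1 regulators was called. The median log2 fold change of the 30 E2F targets was -0.18, against -0.01 for all genes, and lay between -0.35 and -0.01 without 1 of the 4 libraries. Neither of the most abundant targets passed, with DNMT1 at -0.19 ± 0.11 and MCM7 at -0.23 ± 0.18. For the partners TFDP1 and RBBP4 it was -0.07 ± 0.10 and -0.08 ± 0.13, and for the G1 regulators CCND1 and CDKN1A -0.07 ± 0.22 and 0.18 ± 0.23.

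DOT1L inhibition had 1 library and was set beside the DMSO library of the same number without a test. No member differed by more than 1.5-fold, while 14.1% of 14990 genes did, 10% higher and 4.08% lower. E2F7 had 61.0 CPM under DOT1L inhibition (exact Poisson 95% interval 57.4 to 64.8) and 88.0 CPM in DMSO (83.5 to 92.7), a log2 ratio of -0.53. RB1 had 86.4 CPM (82.1 to 90.9) under DOT1L inhibition and 114 CPM (109 to 119) in DMSO, a log2 ratio of -0.40. RBL1 had 29.5 CPM (27 to 32.1) under DOT1L inhibition and 37.9 CPM (34.9 to 41.0) in DMSO, a log2 ratio of -0.36. E2F3 had 38.3 CPM (35.5 to 41.4) under DOT1L inhibition and 45.5 CPM (42.3 to 49.0) in DMSO, a log2 ratio of -0.25. These were the 4 of 10 members whose intervals did not overlap, each lower under DOT1L inhibition than in DMSO. Over all genes 25.7% had intervals apart, 11.3% higher and 14.4% lower. The intervals cover counting error only.

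The DMSO library (replicate 1) itself differed from the no drug library (replicate 2) by a log2 ratio of 0.58 for E2F2 and 0.32 for RBL2. It was 0.31 for RBL1, 0.28 for RB1 and 0.24 for E2F3. For RBL1, RB1 and E2F3 this is similar in size to the DOT1L inhibition values of the same genes. In these genes the DOT1L inhibition library lay nearer the no drug library than the DMSO library. Under DOT1L inhibition and without drug, RBL1 had 29.5 and 30.6 CPM, E2F3 38.3 and 38.5 CPM, and RB1 86.4 and 94.0 CPM. For E2F7 that difference between controls was -0.05. The other members had log2 ratios under DOT1L inhibition of 0.19 (E2F2), -0.17 (E2F1), -0.10 (E2F8), -0.04 (E2F5), -0.03 (E2F4) and -0.01 (RBL2). The other 4 drug set libraries had 74.3 to 91.1 CPM of E2F7.

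**Figure D5:**
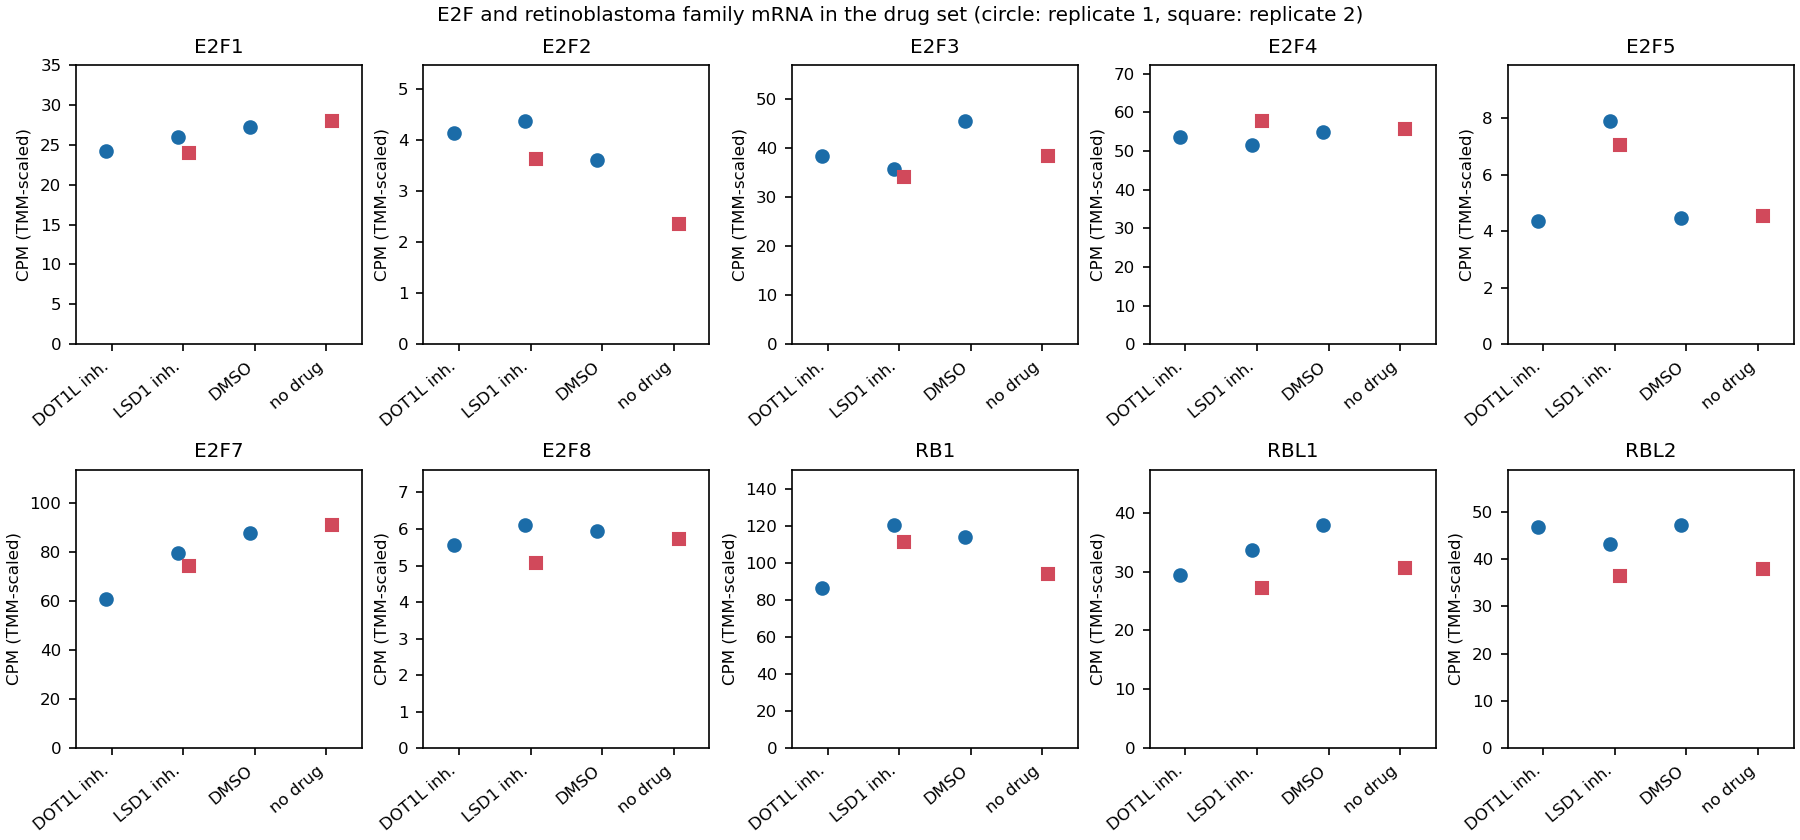
CPM of each member (vertical axis, from 0) in the 5 libraries of the drug set, with circles for replicate 1 and squares for replicate 2. E2F5 is highest in the 2 LSD1 inhibition libraries (7.90 and 7.06 CPM), and E2F7 is lowest in the DOT1L inhibition library (61.0 CPM).

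Per length, the order of the members in the drug set was RB1 (16.3 CPM per kilobase), E2F4 (15.3), E2F7 (12.5), E2F1 (10.3), E2F3 (7.45), RBL2 (5.78), RBL1 (5.33), E2F8 (1.37), E2F5 (0.955) and E2F2 (0.663), as means over 5 libraries of different treatments. Drug and sort libraries were scaled separately, so the levels of the 2 sets are not set against each other by a test. E2F1 lay below E2F4 per length in each of the 5 drug set libraries, at linear ratios of 0.595 to 0.719. RBL1 and RBL2 were near equal in DMSO (0.987) and without drug (0.993), and RBL1 was at 0.773 of RBL2 under DOT1L inhibition and at 0.917 and 0.960 under LSD1 inhibition.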

How the data were processed

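The files held raw counts per Ensembl gene, 1 value per library, which the authors deposited without normalisation. STAR alignment and HTSeq counting on hg38 (GRCh38) are named, per the submitters' processing notes. Their versions, the annotation and the strand setting are not given in the sources used here. Of the reads, 4.33% to 7.72% fell on no feature and 7.14% to 7.62% were ambiguous, and these stayed out of library sizes. Genes were tested with edgeR 4.0.16 (R 4.3.3; TMM, filterByExpr with a minimum count of 10 and a minimum total of 15, glmQLFit, glmQLFTest) with a threshold of 0.05 on the adjusted p. The fit of the gates held 20 libraries, that of the trend 16 and that of LSD1 inhibition 4. SE is the absolute log2 fold change over the square root of F. Log2 ratios of single libraries used a prior count of 2. DESeq2 1.42.0 was an alternative. The script was tested on simulated data. Exon lengths and coordinates came from GENCODE release 29, and the counting may have used another release.

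The replicate numbers pair the sort libraries. After removal of group means, all 40 same-number pairs correlated over 0.1 (0.146 to 0.618, mean 0.455), against 16 of 120 pairs of different numbers. Within groups, counts of any library pair differed by at least 8.22 (chi-square over its degrees of freedom), so none was a copy. Named were all 10 members, the 5 genes most like E2F1, E2F8, RBL1 and RBL2, and up to 4 genes per list (the 2 most abundant called in each direction, or else the 2 most abundant). One gene that this rule names is not reported here. Other genes named from a list were named after their values were seen. The members and lists were chosen with earlier results of these data known. One further table, all libraries in long form, was left aside.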

Additional observations from a re-analysis of the deposited data

Results flagged for a closer look

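A library far from the 3 others of its group, by Dixon's criterion at 95%, occurred in 4 of the 50 combinations of member and sort group, where chance gives about 1 in 20. E2F1 was at 45.8 CPM in midlow dye replicate 2, below the other 3 midlow dye libraries (52.8 to 53.8 CPM). RBL1 was at 55.4 CPM in low dye replicate 2, below the other 3 low dye libraries (63.6 to 64.7 CPM). E2F5 was at 5.58 CPM in midhigh dye replicate 2, above the others (4.18 to 4.33 CPM). E2F7 was at 178 CPM in midlow dye replicate 1, above the others (117 to 122 CPM). Replicate 2 was thus the library apart in 3 of the 4 cases, in a different gate each time.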

How the results depend on the processing

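With RLE size factors in place of TMM no call among the members changed. Gene counts moved from 2589 (high against low dye) to 5433 with the replicate block and 1497 with the 2 groups alone, and to 1255 to 2965 without 1 library (1255 without high dye replicate 3, 1519 without high dye replicate 1), with 4 to 6 members called. For the trend they were 3784, 6317 with the block and 2514 to 4149 without 1 library (2514 without high dye replicate 3), with 5 to 6 members. For midhigh against midlow dye 0 genes became 99 without the filter, 1574 with the block (5 members) and 122 in DESeq2. For high against midhigh dye 0 became 1 without the filter and 2 with the block, and for midlow against low dye 0 became 1 with the block. For high dye against ungated 1 became 25 without the filter, 1107 with the block (3 members), 19 in DESeq2, 0 with the 2 groups alone and 0 to 6 without 1 library. For low dye against ungated 11 became 177 without the filter (1 member, E2F1, adjusted p = 0.0178), 1575 with the block (2 members), 188 in DESeq2, 0 with the 2 groups alone and 0 to 36 without 1 library. For LSD1 inhibition 16 became 0 without the filter, 122 in DESeq2 and 108 to 331 without 1 library, where a lone library is assumed to vary like the other group.

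The drug set's 2 numbers are too few to pair its libraries (residual correlation 0.557, a single free value). With the replicate block LSD1 inhibition called 2242 genes (16% of all) and 4 members, E2F5 (adjusted p = 0.000252) and RB1 (0.0441) higher and E2F3 (0.0116) and E2F7 (0.0111) lower, and 15 of 30 E2F targets lower.

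None of the values that changed sign had passed the test. E2F7 in high against midhigh dye was 0.002 with the block, and RBL2 was 0.003 without the filter. Without 1 library the log2 fold change spanned, for midhigh against midlow dye, -0.103 to 0.020 (E2F4) and -0.157 to 0.158 (E2F5); for high against midhigh dye, -0.049 to 0.073 (E2F4), -0.161 to 0.198 (E2F7) and -0.078 to 0.092 (RBL2); and for midlow against low dye, -0.009 to 0.310 (E2F5), -0.186 to 0.130 (E2F7), -0.039 to 0.229 (E2F8) and -0.124 to 0.067 (RBL2). For high dye against ungated it spanned -0.029 to 0.070 (E2F4), -0.137 to 0.053 (E2F5), -0.317 to 0.075 (E2F7) and -0.161 to 0.010 (RBL2), and for low dye against ungated -0.023 to 0.364 (E2F7), -0.102 to 0.177 (E2F8) and -0.036 to 0.097 (RBL2). For LSD1 inhibition it spanned -0.097 to 0.070 (E2F4), -0.194 to 0.069 (E2F8) and -0.233 to 0.072 (RBL2). The causes were not tested.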
